A study of Mus musculus with 3 samples.

Results

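A set of 10 genes of the Notch pathway was followed through single cells of the mouse embryonic trunk: the ligands Dll1, Dll3, Jag1 and Jag2, the receptors Notch1, Notch2 and Notch3, and the target genes Hes1, Hes5 and Hey1. They were chosen by symbol, 10 of the 33696 genes in the count tables, and all 10 had counts. Trunks from vertebral levels C3 to T2 were taken from embryos of 3 stages, named by embryonic day as E11.5, E12.5 or E13.5, without forelimbs and thoracic organs. At each stage, cells of 3 littermates were pooled into 1 droplet library, so each stage is 1 sample with no replicate. The labels name no strain, genotype or treatment for any stage.

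Notch signalling passes between touching cells. A ligand on one cell binds a receptor on its neighbour, the receptor is cut, and its inner part enters the nucleus, where it joins the DNA-binding protein RBPJ and switches on genes of the Hes and Hey families, whose proteins repress transcription. In the embryonic spinal cord this keeps progenitors dividing while ligand-bearing neighbours become neurons, in muscle it holds progenitors back from differentiation, and in vessels it takes part in arterial fate and in the coating of vessels by mural cells. Delta-like 3, the product of Dll3, differs from the other ligands in that it does not activate receptors on neighbouring cells.

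Cells with at least 4000 unique molecular identifiers (UMIs, 1 per captured RNA molecule) were kept. There were 6149, 6015 and 6943 such cells in stage order, with median depths of 12364, 10953 and 10179 UMIs. Classes were set by how many distinct markers of a class had a UMI in the cell, and no marker was a Notch pathway gene. They are called neural progenitor-like, neurogenic-like and so on, and the suffix is left off below. Neural progenitors numbered 1005, 374 and 53 cells at the 3 stages, neurogenic cells (those with proneural genes) 613, 306 and 25, and neurons 813, 1131 and 414. There were 218, 220 and 311 muscle progenitors, 80, 212 and 281 myocytes, 50, 27 and 64 endothelial cells, 13, 22 and 61 mural cells, and 2306, 2835 and 4393 mesenchymal cells. Classes of under 50 cells at a stage were not compared. Cells with Xist made up 65.4%, 26.8% and 95.3% of the 3 libraries and cells with a Y-linked UMI 29.8%, 60.6% and 2.49%, and sex mix cannot be told apart from stage. Pairs of libraries shared 9 to 16 cell barcodes.

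Levels are CPM, the gene's share of all UMIs summed over the cells of a class given per 1000000 UMIs, with exact Poisson 95% intervals. Intervals cover counting error only, since cells of 1 library are not replicates, and no p-value is given. A gene is called higher or lower where the ratio was 2-fold or more, its 95% interval left out 0 on the log2 scale, and both sides together held at least 10 UMIs. Free RNA from broken cells was judged by haemoglobin RNA, which put 1.08% to 3.94% of a typical cell's RNA down to it in the neural, muscle, endothelial and mesenchymal classes. Erythroid cells served as the background: their Hes1 level was 5.37, 8.54 and 3.91 CPM at the 3 stages, their Hes5 level 1.01, 0.294 and 0 CPM, and their Notch1 level 0, 0.884 and 0.782 CPM. They were deeper (medians of 24319.5, 18375 and 12518 UMIs) than, for example, neurons (9634, 8026 and 6100 UMIs). The background they give may therefore be too low for shallower classes.

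**Figure D1:**
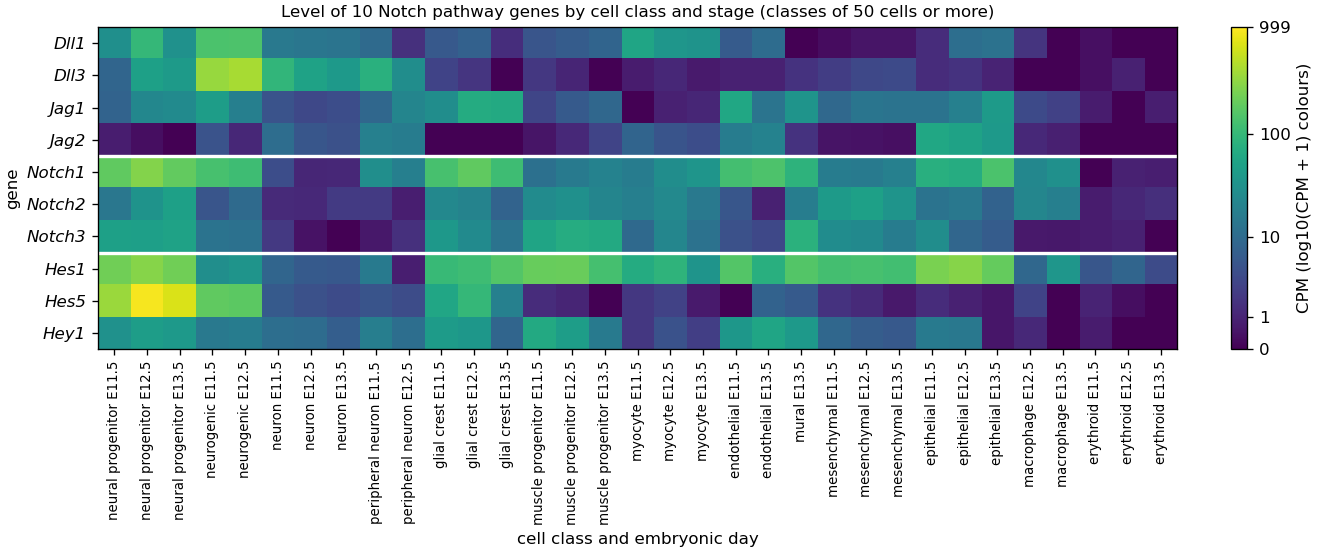
Level of each of the 10 genes (rows; ligands, receptors and targets from top to bottom) in the classes and stages with at least 50 cells (columns; mesothelial cells are not shown), as CPM of summed UMIs on a log10(CPM + 1) colour scale. Hes5 reached 920.5 CPM in neural progenitors at E12.5 and was under 10 CPM outside the neural and glial crest classes, while Hes1 was above 100 CPM in neural progenitors, muscle progenitors, mesenchymal and epithelial cells at every stage.

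Neural progenitors were the cells with the most Notch1 and Hes5, neurogenic cells were those with the most Dll1 and Dll3 at E11.5 and E12.5, and neurons had little of any receptor or of Hes1 and Hes5. Neurogenic cells were too few to compare at E13.5. There Dll1 was highest in myocytes (33.6 CPM) and neural progenitors (31.6 CPM), and Dll3 in neural progenitors (42.1 CPM) and neurons (40.9 CPM). The intervals overlapped within each pair. At E13.5 the Notch1 interval of progenitors overlapped those of endothelial and epithelial cells. Hes5 encodes a repressor of proneural genes. Its level in neural progenitors was 354.5 CPM at E11.5 (344.2 to 365.1), 920.5 CPM at E12.5 (888.8 to 953.1) and 684.3 CPM at E13.5 (603.6 to 772.7). In neurons it was 5.98, 4.59 and 3.79 CPM, which makes progenitors 59.3-fold, 200.7-fold and 180.6-fold higher (log2 ratios 5.89, 7.65 and 7.50). The E12.5 ratio was 6.56 when cells were classed after thinning to 4000 UMIs and 6.95 with 1 more marker required. In mesenchymal cells Hes5 was 1.76, 1.26 and 0.590 CPM, or 1.75%, 2.02% and 4.45% of its level in droplets without a cell, a ceiling on free Hes5 RNA that does not depend on haemoglobin.

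The sequence before the Hes5 start is shown because the Hes5 promoter holds the letters that RBPJ is known to bind. Promoter windows in RefSeq (build GRCm38.p6, where the count tables use GRCm39) were matched by symbol for 8 of the 10 genes, all but Hes1 and Hey1. The 250 bases before each start were searched on both strands for the core of the RBPJ motif, TGGGAA. A longer form of the motif has another G in front of that core, reads GTGGGAA and so always contains the core. Capitals mark the 2 matches of the longer form in the window at chr4:154960673-154960922, + strand, the first of them on the opposite strand and so printed as its reverse complement:

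Hes5: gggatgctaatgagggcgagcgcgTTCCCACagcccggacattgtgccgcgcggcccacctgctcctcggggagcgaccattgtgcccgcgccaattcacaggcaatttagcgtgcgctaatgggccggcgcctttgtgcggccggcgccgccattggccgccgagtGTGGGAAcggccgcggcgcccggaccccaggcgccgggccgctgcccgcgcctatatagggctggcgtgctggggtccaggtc

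The first bases of these matches lie 226 and 83 bases before the start, 143 bases apart, in opposite orientations. None of the windows of the other 7 genes held either form. Of all 32851 windows of this length, 21.6% held the core, 5.42% held the longer form and 0.161% (53 windows) held the longer form at 2 or more places. Among 34 other pathway genes with a window, 5 held the longer form and 0 held it at 2 places. A match is a description of the letters, and no binding was measured here.

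Hes1, a repressor of the same family, was 223.4 CPM in neural progenitors at E11.5 (215.2 to 231.9), 284.4 CPM at E12.5 (266.8 to 302.7) and 223.7 CPM at E13.5 (178.7 to 276.6), against 8.56, 6.08 and 5.68 CPM in neurons. The neuron levels are close to the erythroid background. Progenitors were thus 26.1-fold, 46.8-fold and 39.4-fold above neurons. Hey1, a repressor of the related Hey family, was 32.1, 45.5 and 39.5 CPM in progenitors and 11.1, 10.6 and 6.82 CPM in neurons, with log2 ratios of 1.53, 2.11 and 2.53.

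Among the receptors, Notch1 was 181.7 CPM in neural progenitors at E11.5 (174.3 to 189.3), 280.3 CPM at E12.5 (262.9 to 298.5) and 186.9 CPM at E13.5 (145.9 to 235.7). In neurons it was 4.10, 1.10 and 1.14 CPM, with log2 ratios of 5.47, 7.997 and 7.36, and its neuron levels at the later stages approach those of erythroid cells. Notch3 was level over time in progenitors, at 49.2, 48.1 and 52.6 CPM with overlapping intervals, and was 2.11, 0.399 and 0 CPM in neurons. At E13.5, 20 UMIs in progenitors stood against 0 in neurons, at least 46.3-fold higher if 3 counts are taken as the floor over the neurons. Notch2 was 14.4, 33.6 and 50 CPM in progenitors and 1.29, 1.20 and 2.27 CPM in neurons. All 3 receptors were called higher in progenitors at each stage, and with cells classed after thinning the Notch1 ratios were 4.86, 6.502 and 6.29.

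The ligands did not follow the receptors. Dll1 was 30.5 CPM in progenitors at E11.5, 99.9 CPM at E12.5 and 31.6 CPM at E13.5, and 15.2, 14.0 and 13.3 CPM in neurons, so that its log2 ratio was 1.0 (just short of 2-fold before rounding) in the first library, 2.84 in the second (1.73 with a minimum of 8000 UMIs per cell) and 1.25 in the last. The call at E13.5 rests on 12 UMIs in progenitors and was lost when cells were classed after thinning to 4000 UMIs (log2 ratio 0.958). Dll3 was lower in progenitors than in neurons at E11.5 (8.54 against 92.9 CPM, log2 ratio −3.44), and the 2 classes had like levels at E12.5 (50.1 and 52.7 CPM) and E13.5 (42.1 and 40.9 CPM). Jag1 was 7.98, 23.5 and 26.3 CPM in progenitors and 4.81, 3.49 and 4.17 CPM in neurons, and was called higher in progenitors at E12.5 and E13.5. Jag2 was higher in neurons: 10.9 against 0.718 CPM at E11.5, and 53 UMIs against 1 at E12.5.

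In progenitors against neurons, 8 of the 10 genes were called at E11.5 (6 higher and 2 lower), where 39.2% of all 14327 genes tested were called in either direction. At E12.5, 9 were called (8 higher and 1 lower), against 36.5% of all genes, and at E13.5, 8 were called (all higher), against 26.4%. The median log2 ratio of the 10 was 2.505, 3.83 and 3.56 at the 3 stages, against −0.07, −0.01 and −0.01 over all genes tested. Markers of mesenchymal cells summed to 79.7, 105.1 and 1284 CPM in the progenitors of the 3 stages, with 13 of 15 markers having a UMI at E13.5, and those of neurons to 417, 437 and 292 CPM. Their part in the result was not tested.

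Neurogenic cells lie between those classes: they express proneural genes, and neuron markers summed to 7087 CPM in them at E11.5 and 6287 CPM at E12.5. Dll3 was 340.7 CPM at E11.5 (326.6 to 355.4) and 400.9 CPM at E12.5 (377.1 to 425.8), which is 39.9-fold and 8.0-fold above progenitors (log2 ratios 5.32 and 3.0, the latter 3.695 with a minimum of 8000 UMIs). Dll1 was 141.4 CPM at E11.5 (132.3 to 151.0) and 146.2 CPM at E12.5 (132.0 to 161.5), and stood 4.64-fold above progenitors at E11.5. At E12.5 Dll1 was not called (log2 ratio 0.55, 0.34 to 0.76), with progenitors at 99.9 CPM, and the neurogenic intervals of the 2 stages overlapped. Jag1 was 45.2 CPM at E11.5 (40.1 to 50.7), 5.67-fold above progenitors, and 18.9 CPM at E12.5 (14.0 to 24.9), not distinguishable from the 23.5 CPM of progenitors. Jag2 had 31 UMIs in neurogenic cells against 9 in progenitors at E11.5, a log2 ratio of 2.76 (1.66 to 4.02).

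Receptors and targets stood lower in the same cells, by unequal amounts. Notch1 was 132.8 CPM at E11.5 and 117.1 CPM at E12.5, log2 ratios of −0.45 (not called) and −1.26. Notch2 (5.18 and 9.82 CPM) and Notch3 (13.0 and 12.1 CPM) were called lower than in progenitors at both stages, with log2 ratios from −1.99 to −1.48. Hes1 was the target with the widest gap, at 29.5 CPM (25.4 to 34.0) and 34.8 CPM (28.0 to 42.6), log2 ratios of −2.92 and −3.03 (−3.77 and −4.23 when classed after thinning). Hes5 remained at 186.5 CPM at E11.5 and 172.7 CPM at E12.5, log2 ratios of −0.93 (not called) and −2.41 (the latter −3.17 when classed after thinning). Hey1 was 15.5 and 17.4 CPM, log2 ratios of −1.05 and −1.39, of which the first was not called with a minimum of 8000 UMIs per cell (−0.795).

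Counted over the 10 genes, 8 were called between neurogenic cells and progenitors at E11.5, where 23.1% of the 13897 genes tested were called in either direction: the 4 ligands were higher and Notch2, Notch3, Hes1 and Hey1 were lower. At E12.5, Dll3 alone of 9 tested was higher and 6 were lower, against 22.6% of all genes in either direction. The median log2 ratio of the members was −0.69 and −1.39, against −0.02 and −0.03 over all genes tested. At both stages Dll3 was highest in neurogenic cells and Hes5 in progenitors, and Notch1 was above 100 CPM in both classes.

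**Figure D2:**
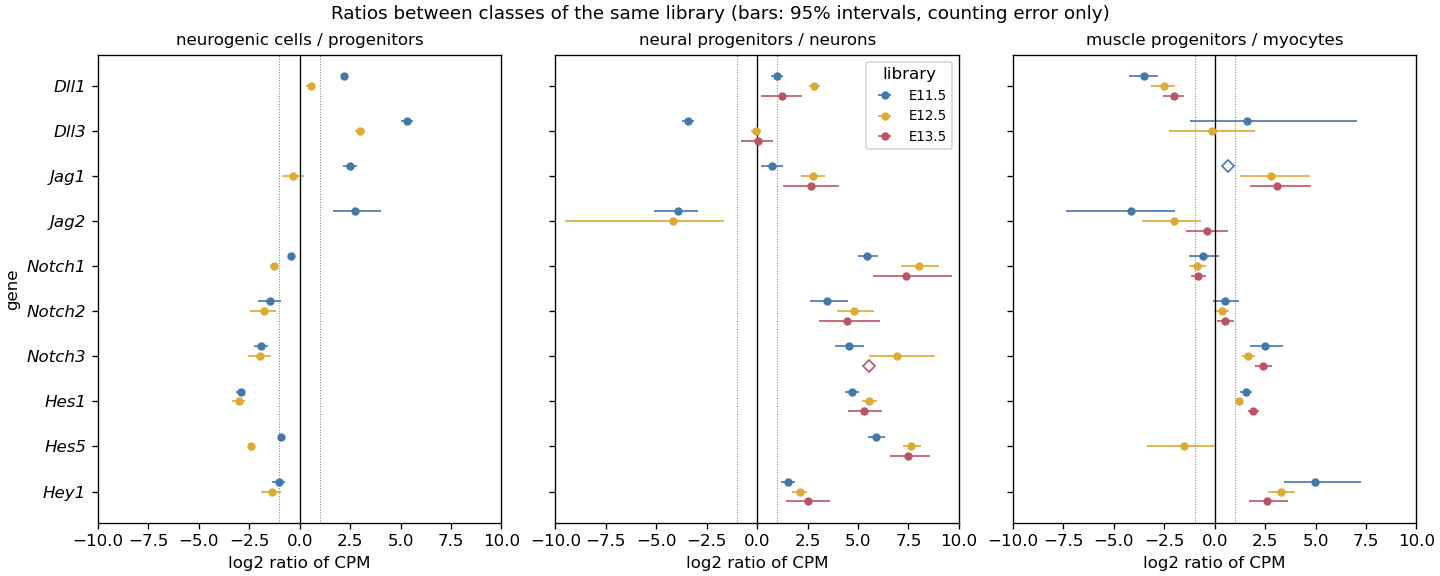
Log2 ratio of CPM between 2 classes of the same library for each gene, with 95% intervals from counting error alone, dotted lines at 2-fold, and open diamonds for the bound where a class had 0 UMIs. Dll3 lies at 5.32 and 3.0 in neurogenic cells over progenitors, the receptors and targets lie right of 1 in progenitors over neurons at every stage, and Dll1 lies left of −2 in muscle progenitors over myocytes.

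The ligands were not alike within neurons. Spinal motor neuron-like cells at E11.5 (62 cells) had 23.3 CPM of Jag2 (15.3 to 33.9), V1 interneuron-like cells (55 cells) had 0 CPM (up to 7.13), and the other 696 neurons had 9.64 CPM (7.45 to 12.3). Dll3 ran the other way, at 41.4 CPM in motor neurons (30.5 to 54.9), 129.6 CPM in V1 cells (100.4 to 164.6) and 98.8 CPM in the others (91.5 to 106.6). The intervals of the motor neurons overlap those of neither other group for Dll3 or Jag2. Peripheral neurons, of sensory and sympathetic ganglia, had 79.1 CPM of Dll3 and 19.5 CPM of Jag2 at E11.5.

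Of the 43 other pathway genes in the list used here, 8 of 39 tested were higher and 4 lower in neurogenic cells than in progenitors at E11.5, and 5 of 36 and 7 at E12.5, where 23.1% and 22.6% of all genes were called in either direction. Hes6, which counters Hes1, was 504.3 CPM in neurogenic cells and 92.2 CPM in progenitors at E11.5. Mfng, a sugar transferase that modifies receptors, was 76.4 against 10.1 CPM. Its relative Lfng went the opposite way, at 12.1 against 32.6 CPM, as did the feedback inhibitor Nrarp, at 62.8 against 164.5 CPM. Dll4 had 19 UMIs in neurogenic cells and 0 in progenitors, at least 12.46-fold higher. Mib1, which the ligand-bearing cell needs for ligand uptake, was 104.4 against 51.6 CPM, and Numbl, an inhibitor, 85.2 against 14.8 CPM. At E12.5 Mfng, Dll4 and Numbl were again called higher and Lfng and Nrarp lower, while Hes6 and Mib1 were not called. At E11.5 the fringe genes Lfng and Mfng therefore divided these 2 classes, Lfng with the receptors and targets and Mfng with the ligands. Rfng, another fringe gene, was not called between them at either stage. Against neurons at E12.5, Lfng and Mfng were both called higher in progenitors.

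Between progenitors and neurons, 6, 8 and 8 of the other pathway genes were higher in progenitors and 10, 7 and 3 lower at the 3 stages, of 40, 39 and 37 tested. The 16, 15 and 11 called are shares close to those of all genes, at 39.2%, 36.5% and 26.4%. Lfng, Adam17, Dtx4, Nrarp and Hey2 were higher in progenitors at each stage, and Dner, which encodes a further Notch-binding membrane protein, was lower at each. At E11.5 Nrarp was 5.63 CPM in neurons and Dner 114 CPM, against 8.78 CPM of Dner in progenitors.

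Single cells were then compared after each was thinned to 4000 UMIs, so that all had the same depth. Dll1 was seen in 10.6% of progenitors at E11.5 (8.72% to 12.6%) and in 27.3% at E12.5 (22.8% to 32.1%). Unthinned, at median depths of 11689 and 8418 UMIs, the shares were 19.9% and 35.3%. Hes5 was seen in 52.4% of progenitors at E11.5 (49.3% to 55.6%) and 82.1% at E12.5 (77.8% to 85.8%), or 72.2% and 91.4% unthinned. Neurogenic cells, with median depths of 8922 and 6915 UMIs, had Dll1 in 32.3% and 34.0%, Dll3 in 62.8% and 65.4%, Notch1 in 34.3% and 31.4%, and Hes5 in 24.3% and 15.4%. Erythroid cells, at median depths of 24319.5 and 18375 UMIs, had Hes1 in 3.45% and 2.16%, Hes5 in 1.72% and 0.541%, and Dll1 in 0 of 116 and 0 of 185, which allows up to 2.59% and 1.62%. The neurogenic Hes1 shares were 5.71% and 5.23%, and the summed levels of 29.5 and 34.8 CPM stood against 5.37 and 8.54 CPM in erythroid cells.

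The neurogenic cells that carried Dll1 were more often those with Notch1 and Hes5, and the cells that carried Dll3 at E11.5 were less often. At E11.5, 41.9% of neurogenic cells with a Dll1 UMI had Hes5 (35.0% to 49.1%), against 15.9% of those without (12.52% to 19.8%), and 60.6% against 21.7% had Notch1. Split by Dll3, 14.8% with and 40.4% without had Hes5, and 27.5% against 45.6% had Notch1. The 64 cells with Jag1 lay on the side of Dll1, with Hes5 in 51.6% against 21.1% and Notch1 in 57.8% against 31.5%. At E12.5 Dll1 again went with Hes5 (29.8% against 7.92%) and Notch1 (49.0% against 22.3%), while Dll3 was found with less Hes5 (10.0% with, 6.22% to 15.0%, against 25.5% without, 17.5% to 34.9%). For Notch1 the Dll3 intervals overlapped (27.0%, 21.0% to 33.7%, against 39.6%, 30.3% to 49.6%). Thinned to 8000 UMIs, the E12.5 Hes5 shares by Dll3 overlapped as well (21.3%, 12.7% to 32.3%, against 29.4%, 15.1% to 47.5%).

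In progenitors the 2 targets parted. Hes1 was seen in 24.5% of progenitors with Dll1 at E11.5 (16.7% to 33.8%) and in 50.6% of those without (47.3% to 53.9%). At E12.5 the shares were 28.4% (19.9% to 38.2%) and 57.4% (51.2% to 63.3%). Dll3 went with fewer Hes1 cells too at E12.5, at 26.2% (15.8% to 39.1%) against 54.0% (48.3% to 59.6%). At E11.5 the Dll3 intervals overlapped (28.1%, 13.75% to 46.75%, against 48.5%, 45.3% to 51.7%). Thinned to 8000 UMIs, the E12.5 Hes1 intervals overlapped for Dll1 (62.8%, 46.7% to 77.0%, against 79.1%, 72.1% to 85.1%). For Dll3 they overlapped too (57.1%, 34.0% to 78.2%, against 77.8%, 71.2% to 83.6%). At E11.5 and this depth, the Hes1 intervals stayed apart for Dll1 (40.7% to 59.3% against 67.8% to 74.4%). Those for Dll3 overlapped (33.8% to 66.2% against 65.9% to 72.3%). Hes5 was not lower in Dll1 cells at E11.5, where it was seen in 67.0% with (57.2% to 75.8%) and 50.7% without (47.4% to 54.0%), and at E12.5 the shares of 75.5% and 84.6% turned round to 100% and 89.0% in cells thinned to 8000 UMIs. These shares describe cells of 1 library each, and how far cells at different steps of neurogenesis make them up was not tested.

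**Figure D3:**
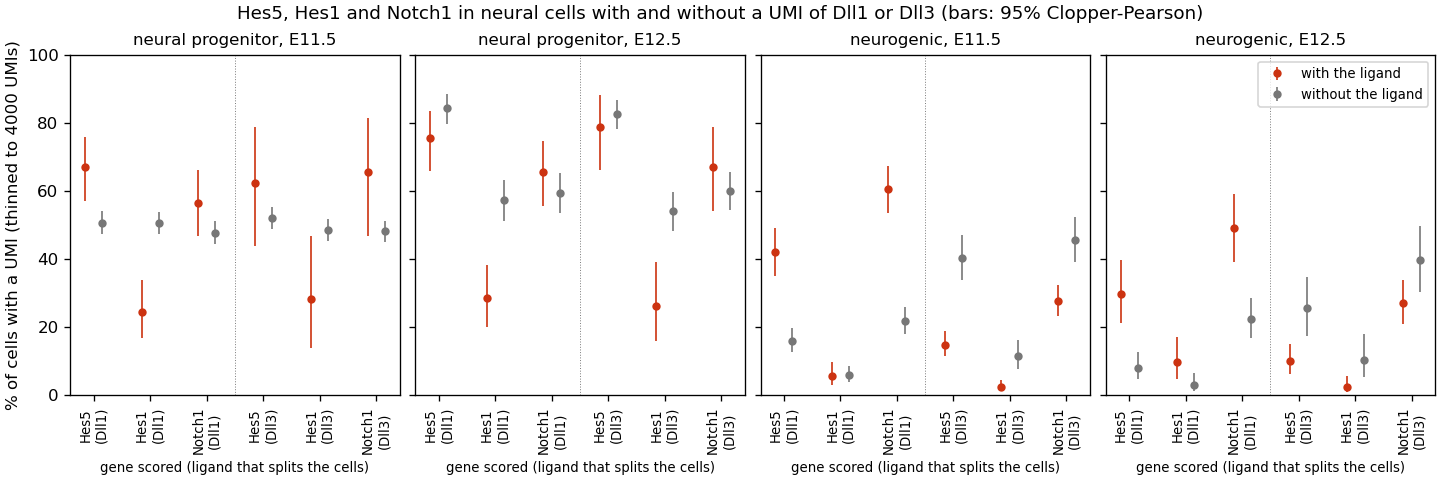
Percent of cells with a UMI of Hes5, Hes1 or Notch1 (y axis; cells thinned to 4000 UMIs) among cells with (red) and without (grey) a UMI of the ligand in brackets, with 95% Clopper-Pearson intervals. In progenitors Hes1 was seen in 24.5% of cells with Dll1 against 50.6% without at E11.5, and in neurogenic cells Hes5 was seen in 41.9% of cells with Dll1 and 14.8% of cells with Dll3.

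Spinal progenitors form bands along the dorsal to ventral axis, each marked by its own transcription factors, and ligand RNA levels differed between cells with different band genes. Cells were split here without thinning, so whether a band gene was seen also depends on depth. Prdm12, for example, was seen in 12.2% of E11.5 neurogenic cells unthinned and in 8.16% thinned. Cells without a UMI can thus include cells that express the gene. Jag1 and Dll1 parted at Prdm12, a gene of the intermediate dP6 to p1 region in the spinal cord that is also used by sensory neurons. In the 75 neurogenic cells with Prdm12 at E11.5, Jag1 was 178.1 CPM (150.6 to 209.3) against 25.3 CPM without, a log2 ratio of 2.82, and Dll1 was 49.4 against 155.2 CPM, a log2 ratio of −1.65. With and without Prdm12, 6.25% of all genes were called. Lfng had 0 CPM in these cells against 13.9 CPM, and Mfng 31.3 against 83.2 CPM. The 44 progenitors with Prdm12 showed the same pair of differences, with Jag1 at 44.8 against 6.34 CPM and Dll1 at 5.60 (3 UMIs) against 31.6 CPM, where 5.25% of all genes were called. Hes5 (696 against 339.3 CPM) and Hey1 (65.3 against 30.6 CPM) were higher in them too. Glial crest markers summed to 78.4 CPM in these progenitors and 15.4 CPM in those without Prdm12, with Sox10 at 7.46 and 0 CPM. Prdm12 was itself 1 of the peripheral neuron markers. The other 8 of those markers summed to 225.1 CPM in the neurogenic cells with Prdm12 and 146.0 CPM in those without, glial crest markers to 284.1 and 56.5 CPM, and Pax6, a spinal progenitor gene, was 108.3 and 46.2 CPM. Their part in the result was not tested.

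Cells with Dbx1, a gene of the p0 band, had more Hes5 and Hey1. In 39 progenitors with Dbx1 at E11.5, Hes5 was 1150 CPM against 322.4 CPM without (log2 ratio 1.83) and Hey1 74.0 against 30.4 CPM, where 4.11% of all genes were called. In 38 neurogenic cells with Dbx1, Hes5 was 440.6 against 170 CPM, Hey1 36.1 against 14.2 CPM and Jag1 5.15 against 47.8 CPM, where 4.83% of all genes were called. Nkx2-2, a ventral gene, was seen in 20 progenitors, where Hey1 was 104.4 against 30.4 CPM (6.43% of all genes called).

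Toward the dorsal side, Jag1 was low in cells with Atoh1 and Olig3. The 75 neurogenic cells with Atoh1 had 6.63 CPM of Jag1 against 50.4 CPM (7.33% of all genes called). The 204 with Olig3 had 13.4 against 60.6 CPM of Jag1, 73.9 against 161.4 CPM of Notch1 and 92.6 against 232.1 CPM of Hes5 (7.0% of all genes called). In 242 cells with Neurog1 the reverse held, with Jag1 at 98.5 against 8.48 CPM and Hes5 at 322.5 against 92.8 CPM (5.77% called). Peripheral neuron markers summed to 240.1 CPM with Neurog1 and 151.1 CPM without, and Pax6 was 94.3 and 26.8 CPM; their part was not tested. Neurog2 cells (377) had 69.3 against 11.3 CPM of Jag1 and 186.5 against 77.9 CPM of Dll1 (5.84% called). In progenitors at the same stage Atoh1, Olig3 and Neurog1 each went with more Dll1, at 71.5 against 29.4 CPM for Atoh1 (27 cells, 4.73% of all genes called), 55.0 against 26.1 CPM for Olig3 (148 cells, 4.22% called) and 87.3 against 28.9 CPM for Neurog1 (30 cells, 3.41% called). Hes1 was lower in those with Atoh1 (86.3 against 227.2 CPM) and Neurog1 (104.7 against 226.8 CPM), and Hes5 was higher in both. The 73 progenitors with Neurog2 had 33.2 against 6.09 CPM of Jag1 and 712.7 against 327.7 CPM of Hes5 (3.34% called).

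At E12.5, the 166 neurogenic cells with Neurog2 differed in Hey1 alone of the 10 genes, at 24.7 against 9.43 CPM (3.89% called), and the 21 with Olig3 had no Hes1, Hes5 or Hey1 UMI (7.6% called). Neurog1, Neurog2 and Atoh1 are themselves among the markers that set the neurogenic class.

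**Figure D4:**
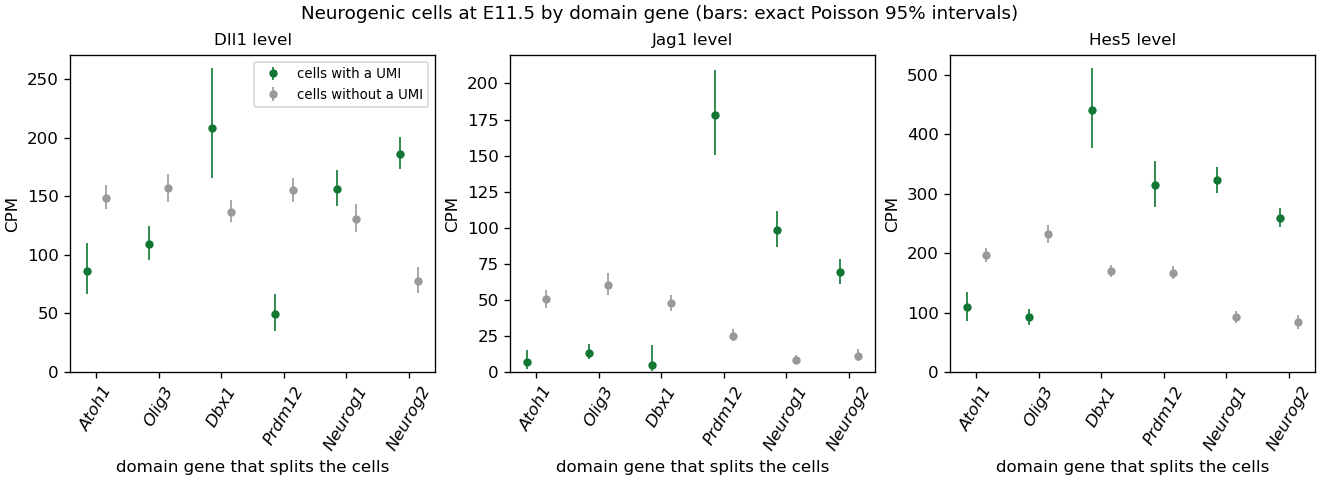
Level of Dll1, Jag1 and Hes5 (CPM with exact Poisson 95% intervals) in neurogenic cells at E11.5 with (green) and without (grey) a UMI of the band or proneural gene on the x axis. Jag1 stands at 178.1 CPM in cells with Prdm12 and at 5.15 CPM in cells with Dbx1, and Dll1 is 186.5 CPM with Neurog2 and 49.4 CPM with Prdm12.

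Over stages, 5 of the 10 genes were higher in neural progenitors of the E12.5 library than of the E11.5 library and 0 lower, where 11.4% of all genes were called in either direction. Dll3 was 5.87-fold higher (log2 2.55, 2.20 to 2.91; 1.58 with a minimum of 8000 UMIs), Dll1 3.28-fold (1.71, 1.5 to 1.93) and Hes5 2.60-fold (1.38, 1.31 to 1.44). Jag1 (1.56) and Notch2 (1.22) were the other 2, while Notch1 (0.63), Hes1 (0.35), Hey1 (0.50) and Notch3 (−0.04) stayed under the fold. The Dll1 value fell to 0.764 with a minimum of 8000 UMIs per cell, and the Notch2 value to 0.882 in the cells that had Xist but no Y-linked UMI, so neither call held under every setting. The make-up of the class moved as well, in that the progenitor markers summed to 4927, 14430 and 31760 CPM at the 3 stages. Their part in the result was not tested. From E12.5 to E13.5, Dll1 alone of 9 tested was lower (log2 −1.66, −2.63 to −0.84, 12 UMIs at E13.5), and 0 were higher, where 11.9% of all genes were called.

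In neurogenic cells, Jag1 (log2 −1.26, −1.72 to −0.82) and Jag2 (−2.10, 3 UMIs against 31) were lower at E12.5 than at E11.5, and 0 members were higher, where 10% of all genes were called. Jag1 was −0.162 with a minimum of 8000 UMIs, and Jag2 −0.907 in the cells that had Xist but no Y-linked UMI. Thinned shares of neurogenic cells with Neurog1 were 29.9% and 8.82% at these stages and with Prdm12 8.16% and 4.58%. The part of these shares in the Jag1 difference was not tested. At E12.5, Jag1 was 73.4 CPM in cells with Neurog1 and 4.76 CPM in those without (10.9% of all genes called). Progenitor markers there summed to 3823 CPM with Neurog1 and 1904 CPM without, and their part was not tested. In neurons, Jag2 (log2 −1.05), Notch1 (−1.90, or −1.12 when classed after thinning) and Notch3 (−2.40, 4 UMIs against 18) were lower at E12.5 and 0 members higher, where 11.1% of all genes were called. The Jag2 value lies at the fold and was −0.856 with the 8000 UMI minimum and −0.395 in the cells that had Xist but no Y-linked UMI. From E12.5 to E13.5, 0 of 9 members tested were called in neurons, where 7.32% of all genes were.

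In muscle, progenitors had the receptor Notch3 and the targets Hes1 and Hey1, and differentiating myocytes had the ligand Dll1. Chrna1, 1 of the 9 muscle progenitor markers, was among the 10 genes most raised in E13.5 myocytes over other cells. The part of such shared markers in the result was not tested. Dll1 was 57.3 CPM in myocytes at E11.5 (45.6 to 71.0), 36.9 CPM at E12.5 (31.5 to 43.0) and 33.6 CPM at E13.5 (28.5 to 39.3). In muscle progenitors it was 5.12, 6.37 and 8.25 CPM, or 11.2-fold, 5.79-fold and 4.07-fold lower. The log2 ratios of −3.48, −2.53 and −2.03 became −2.35, −1.72 and −1.39 when cells were classed after thinning, with the calls kept. Jag2 ran with Dll1, with log2 ratios of −4.15, −2.01 and −0.38 (the last not called) in progenitors over myocytes. The first 2 rest on few counts, 2 UMIs against 12 and 6 against 22. Jag1 ran the opposite way, at 3.26, 6.17 and 9.04 CPM in progenitors and 0, 0.905 and 1.08 CPM in myocytes. At E11.5 its 14 UMIs against 0 count as higher by the interval, although the floor of 3 counts gives only at least 1.58-fold.

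Notch3 was 55.2 CPM in muscle progenitors at E11.5 (48.4 to 62.7), 71.9 CPM at E12.5 (64.6 to 79.9) and 65.8 CPM at E13.5 (58.9 to 73.2), against 9.66, 22.6 and 12.49 CPM in myocytes, or 5.71-fold, 3.18-fold and 5.27-fold higher. The log2 ratios at E12.5 and E13.5 were 1.67 and 2.40, or 2.36 and 3.62 when classed after thinning. Notch1 and Notch2 were not called: Notch1 was 11.6, 15.6 and 20.4 CPM in progenitors and 17.2, 28.3 and 36.0 CPM in myocytes, and Notch2 lay between 15.5 and 31.2 CPM in all of these. The 3 receptors therefore did not share a pattern in muscle as they did between progenitors and neurons.

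Hey1 was the target that separated the muscle classes most, at 65.7 CPM in progenitors at E11.5 (58.2 to 73.8), 46.0 CPM at E12.5 (40.2 to 52.5) and 15.7 CPM at E13.5 (12.46 to 19.6), against 2.07, 4.75 and 2.58 CPM in myocytes. The folds were 31.7, 9.68 and 6.08. Hes1 was 198.6, 205.1 and 131 CPM in progenitors and 68.3, 89.0 and 34.7 CPM in myocytes, 2.91-fold, 2.31-fold and 3.78-fold higher. When cells were classed after thinning, the Hes1 log2 ratio was 2.71 in place of 1.54 at E11.5 and 2.83 in place of 1.92 at E13.5, where Hey1 was 3.87 in place of 2.61. Hes5 was 0 to 2.94 CPM in both classes at every stage. In progenitors against myocytes, 4 of 9 members were higher and 2 lower at E11.5 (23.6% of all genes called in either direction), 4 and 2 of 10 at E12.5 (18.4%), and 4 and 1 of 8 at E13.5 (19.9%).

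Of the other pathway genes, 9, 6 and 4 were higher in muscle progenitors and 6, 5 and 3 lower, of 35, 38 and 35 tested, beside the 23.6%, 18.4% and 19.9% of all genes. Lfng, Dtx1 and Dtx4 were higher and Dner, Neurl1a and Hes6 lower at each stage. Hes6 was 462.8, 414 and 271.9 CPM in myocytes against 113.6, 137.5 and 79.4 CPM in progenitors. Lfng was 23.3, 51.4 and 30.3 CPM in progenitors against 5.52, 13.8 and 9.04 CPM in myocytes. Rbpj, the DNA-binding partner itself, was lower in progenitors at E11.5 (72.4 against 161.4 CPM).

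Over stages, Hey1 was lower in muscle progenitors at E13.5 than at E12.5 (log2 −1.55, −1.94 to −1.18). It was the 1 member called of 8 tested, where 6.45% of all genes were called. From E11.5 to E12.5, 0 of 9 were called, where 7.37% of all genes were. In myocytes Notch3 was higher at E12.5 than at E11.5 (log2 1.23, 0.42 to 2.15, 100 UMIs against 14), where 8.5% of all genes were called. That call was lost when cells were classed after thinning (0.71) and with means of per-cell CPM (0.797). Hes1 was lower in myocytes at E13.5 than at E12.5 (−1.36, −1.63 to −1.09), as was Hes5 on 3 UMIs against 13 (−2.19), where 5.75% of all genes were called.

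Endothelial cells had Notch1, Jag1, Jag2 and Hey1 and little Notch2 or Notch3. Notch1, the receptor of arterial fate, was 125 CPM at E11.5 (105.0 to 147.7) and 143.8 CPM at E13.5 (122.6 to 167.5), 7.17-fold and 7.52-fold above mesenchymal cells. Hey1 was 38.0 CPM (27.4 to 51.4) and 57.0 CPM (44.0 to 72.6), 4.18-fold and 9.83-fold higher (at E11.5 the log2 ratio was 2.06, or 1.39 from means of per-cell CPM). Jag2 was 17.2 and 20.2 CPM against 0.454 and 0.337 CPM. Dll1, on 7 and 12 UMIs, was 6.34 and 10.5 CPM against 0.242 and 0.464 CPM (log2 ratios 4.71 and 4.50). Jag1 differed between the libraries: 60.7 CPM at E11.5 (47.0 to 77.1), 6.51-fold above mesenchymal cells, and 13.2 CPM at E13.5 (7.36 to 21.7), level with their 13.1 CPM.

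Notch2 had 6 UMIs in endothelial cells at E11.5 (5.43 CPM) and 1 at E13.5 (0.877 CPM), against 42.0 and 34.7 CPM in mesenchymal cells, and Notch3 5 and 4 UMIs. The Notch2 log2 ratio at E13.5 was −5.31, or −2.76 when cells were classed after thinning. Hes1 was 156.7 CPM at E11.5 (134.2 to 181.9) and 77.1 CPM at E13.5 (61.9 to 95.04), under the fold against mesenchymal cells at both. Hes5 had 0 UMIs at E11.5 and 9 at E13.5. In all, 5 of 10 members were higher and 2 lower at E11.5 (21.8% of all genes called in either direction) and 5 and 2 at E13.5 (23.4%). The E11.5 class holds 50 cells, and the 27 endothelial cells of E12.5 were not compared (Notch1 166.2 CPM, Jag1 65.2 CPM, Hey1 67.8 CPM).

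The endothelial class differed further in pathway genes that are not members. Dll4, the ligand of arterial and sprouting vessels, was 56.2 and 55.2 CPM at E11.5 and E13.5 against 0.0303 and 0.148 CPM in mesenchymal cells, and the receptor Notch4 29.9 and 35.1 CPM. Nrarp was 76.1 and 131.5 CPM and Mfng 109.6 and 98.2 CPM in endothelial cells. Together 9 of 42 other pathway genes were higher and 6 lower at E11.5, and 9 and 7 at E13.5, where 21.8% and 23.4% of all genes were called. Dll4, Notch4, Lfng, Mfng, Adam10, Psen2 and Nrarp were higher at both stages.

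Mural cells, the smooth muscle cells and pericytes around vessels, were compared at E13.5 alone, with 61 cells. Notch3, a receptor that mural cells are known for, was 81.5 CPM (65.8 to 99.8), 4.71-fold above mesenchymal cells, and in endothelial cells of the same library it was 3.51 CPM. Notch1 was 85.9 CPM (69.7 to 104.6), Jag1 35.0 CPM (25.0 to 47.7) and Hey1 40.3 CPM (29.5 to 53.8), all called higher. Notch2 was 17.5 CPM, a log2 ratio of −0.98, and Dll1 had 0 UMIs. The target Heyl was 79.7 against 1.86 CPM, 43.0-fold higher. Of the members, 5 of 10 were higher and 0 lower, where 8.08% of all genes were called, and of the other pathway genes 5 and 1 of 41. Endothelial markers summed to 114.8 CPM in mural cells, against 6687 CPM in endothelial cells, with Tie1, Cldn5 and Sox18 at 0, and the part of endothelial RNA in the Notch1 level was not tested. Cells at the earlier stages were few (13 and 22), with Notch3 at 93.8 and 115 CPM.

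**Figure D5:**
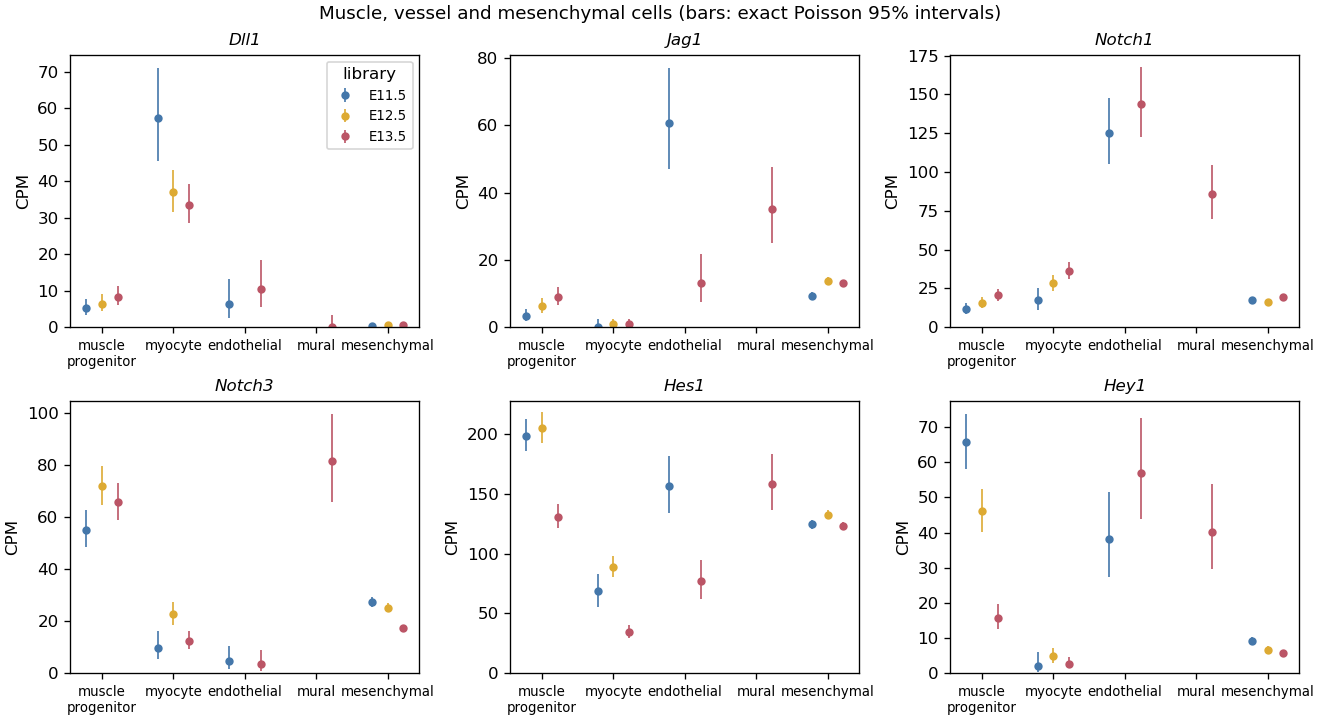
Levels of 6 members (CPM with exact Poisson 95% intervals) in muscle progenitors, myocytes, endothelial, mural and mesenchymal cells, coloured by library, for classes of at least 50 cells. Dll1 is at 57.3 CPM in E11.5 myocytes, Notch3 at 81.5 CPM in mural cells and 55.2 to 71.9 CPM in muscle progenitors, and Hey1 is lower in muscle progenitors of E13.5 (15.7 CPM) than of E11.5 (65.7 CPM).

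Mesenchymal cells, the most numerous class, had receptors and Hes1. Notch2 was 42.0 CPM at E11.5 (39.8 to 44.3), 50.2 CPM at E12.5 (47.9 to 52.6) and 34.7 CPM at E13.5 (33.0 to 36.4), and at E11.5 its interval lay above that of every other class compared. Notch3 was 27.4, 25.3 and 17.3 CPM and Notch1 17.4, 16.2 and 19.1 CPM. Jag1 was 9.32, 13.7 and 13.1 CPM, while Dll1 and Jag2 stayed under 0.5 CPM and Dll3 was 2.48 to 3.67 CPM. Hes1 was 124.5, 132.6 and 122.9 CPM, and within the class it differed by subset: 59.7 CPM (51.0 to 69.5) in chondrogenic and 194 CPM in sclerotome-like cells at E12.5. Over stages, 0 of 10 members were called from E11.5 to E12.5, where 14.5% of all genes were, and Hes5 alone was lower from E12.5 to E13.5 (log2 −1.09, 28 UMIs against 46), where 8.73% of all genes were called. That Hes5 value was −0.139 once free RNA was subtracted.

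Read by gene over the 11 classes ordered at E11.5 (mesothelial cells left out), the order of levels had several steps wider than the counting intervals. Dll1 fell from neurogenic cells to myocytes to neural progenitors with no overlap between neighbours. Notch1 was highest in neural progenitors, and neurogenic, glial crest and endothelial cells followed with overlapping intervals. Notch3 did not separate muscle progenitors (55.2 CPM), neural progenitors (49.2 CPM) and glial crest (39.3 CPM, 33.2 to 46.2) from one neighbour to the next. Jag1 was highest in endothelial (60.7 CPM) and neurogenic cells (45.2 CPM), whose intervals overlap. Jag2 was highest in epithelial cells, at 61.0 CPM (44.2 to 82.2). Hes1 was highest in epithelial cells (246.9 CPM, 211.6 to 286.5) and neural progenitors, which overlap. At E13.5, mural cells, muscle progenitors and neural progenitors did not differ in Notch3 from one neighbour to the next.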

How the data were processed

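The authors made 10x Chromium 3' libraries (kit version 3.1) and deposited UMI count matrices, made with Cell Ranger 8.0.1 on GRCm39 per the submitters' processing notes. No gene annotation release is named in the labels or headers. The deposited counts are raw. Library totals were 103383215, 94155624 and 113402193 UMIs.

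Cells needed 4000 UMIs and 500 genes or more and no more than 10% mitochondrial UMIs, and scrublet calls (2.60%, 2.04% and 2.40% of cells) were removed. Cells were classed from 189 markers of 14 classes and their subsets; a cell needed, for example, 4 of 10 neural progenitor markers, 4 of 10 neurogenic, 6 of 13 neuron, 3 of 9 muscle progenitor, 6 of 13 myocyte, 6 of 12 endothelial, 5 of 11 mural or 6 of 15 mesenchymal markers. Cells with markers of 2 families were left out. The split of cells by 1 further gene is not reported here. The gate minimums were set after marker counts were seen, and the members and gene lists were chosen with earlier results of these data known. All 10 members are named, and of the 43 other pathway genes those past 2-fold in the comparison described may be named. For each member, the 3 genes with the closest pattern over classes and stages are ranked by Pearson r.

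Summed UMIs were turned into CPM. Ratios carry exact conditional binomial 95% intervals, shares Clopper-Pearson intervals. Reads of a gene are UMI counts from the 3' end and are not scaled by length, so levels are compared between classes for 1 gene, not between genes. Free RNA was taken from droplets of 50 to 500 UMIs. Alternatives tried were keeping doublets, a 5% mitochondrial maximum, an 8000 UMI minimum, 1 more marker, classing on thinned cells, subtracting free RNA, another scaling, per-cell means and cells with Xist alone. The interval code was tested on data simulated from neural progenitors and neurons at E11.5 with Poisson error alone, where 200 of 200 changed genes were recovered. The changed genes had expected counts above 50 UMIs and a change larger than 2-fold. The simulation therefore does not test calls near the fold or on few UMIs, or variation between cells or libraries. Python 3.11.15, numpy 2.4.6, scipy 1.17.1, pandas 2.3.3 and scanpy 1.11.5 were used.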

Additional observations from a re-analysis of the deposited data

Results flagged for a closer look

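For Jag1, the E12.5 and E11.5 libraries differed in opposite directions in 2 neural classes: the log2 ratio of E12.5 to E11.5 was 1.56 in neural progenitors and −1.26 in neurogenic cells. The difference between the classes was not tested, and with a minimum of 8000 UMIs per cell the neurogenic value was −0.162.

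For Notch3, the same ratio was 1.23 in myocytes (100 UMIs against 14) and −2.40 in neurons (4 UMIs against 18). This difference was not tested either. When cells were classed after thinning, the values were 0.71 in myocytes and −1.58 in neurons. From means of per-cell CPM the myocyte value was 0.797, so its call was lost under both settings.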

How the results depend on the processing

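Each stage is 1 library of pooled littermates, so stage, litter, sex mix and library cannot be told apart. No paired analysis was possible because each stage has 1 library. Neurogenic cells at E13.5, endothelial cells at E12.5 and mural cells before E13.5 were too few to compare. No called ratio changed direction under the alternatives run. Differences in shares between cells with and without a ligand did in several cases, among them, in E12.5 progenitors, Hes5 by Dll1 (75.5% and 84.6%, or 100% and 89.0% at 8000 UMIs), Hes5 by Dll3 (−4.06 points, or 4.43 at 8000 UMIs) and Notch1 by Dll3 (7.15, or −0.443 unthinned), and Hes1 by Dll1 in E11.5 neurogenic cells (−0.23, or 10.3 at 8000 UMIs). Of the log2 ratios, 52 of 188 moved beyond their interval when cells were classed after thinning, 27 of 172 among cells that had Xist but no Y-linked UMI, 22 of 170 with a minimum of 8000 UMIs, 22 of 182 with 1 more marker and 0 of 208 with called doublets kept or without haemoglobin, mitochondrial and ribosomal genes.

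Counts of members called moved as follows, and the cause was not tested. With doublets kept, 1 member was lower in mural than in mesenchymal cells. With a 5% mitochondrial maximum, 1 was higher in muscle progenitors at E12.5 than at E11.5. With 8000 UMIs, the members lower were 0 in neurogenic cells (E12.5 against E11.5), 1 in myocytes and 0 in mesenchymal cells (E13.5 against E12.5), and with 1 more marker 0 in mesenchymal cells. With classing on thinned cells, those lower at E13.5 than at E12.5 were 2 in neural progenitors, 1 in neurons, 2 in muscle progenitors and 0 in mesenchymal cells, those lower at E12.5 than at E11.5 were 1 in muscle progenitors and 1 in mesenchymal cells, and 0 were higher in myocytes at E12.5. With free RNA subtracted, 2 were higher in mesenchymal cells at E12.5 and 0 lower at E13.5. With per-cell means, 1 was higher in neurogenic cells at E12.5, 1 higher and 3 lower in muscle progenitors at E13.5, and 0 higher in myocytes at E12.5. Among cells that had Xist but no Y-linked UMI, 1 was lower in muscle progenitors than in myocytes at E12.5, 1 higher and 1 lower in neurogenic cells at E12.5, 1 lower in neurons at E12.5 and 1 at E13.5, 1 lower in myocytes at E13.5 and 0 in mesenchymal cells at E13.5.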

Other observations

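Classes outside the neural, muscle, vessel and mesenchymal groups had Notch genes as well. Glial crest cells, the precursors of Schwann cells, had Jag1 at 28.3, 69.8 and 66.1 CPM at the 3 stages, Notch1 at 132.2, 182.1 and 116.4 CPM, Hes5 at 57.9, 98.1 and 19.4 CPM, and no Jag2 UMI at any stage. Hes5 and Hey1 were lowest in this class at E13.5, with Hey1 at 43.1, 37.7 and 8.63 CPM, while Hes1 was 103.4, 116.0 and 154.5 CPM. Epithelial cells had Jag2 at 61.0, 53.0 and 39.4 CPM and Jag1 at 12.8, 19.1 and 42.4 CPM. Their Notch1 was 76.6, 70.4 and 139.6 CPM. In macrophages Notch1 was 23.8 CPM at E12.5 and reached 31.1 CPM at E13.5.

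Over the 34 combinations of class and stage with at least 50 cells, the genes with the pattern most like a member's on log2(CPM + 1) were ranked among 15987 genes. The closest was Miat for Dll3 (Pearson r 0.955), Sox2ot for Hes5 (0.952), Yap1 and Trip6 for Hes1 (0.923 each), Gli3 for Notch3 (0.914), Fzd7 for Notch2 (0.867), Zbtb18 for Dll1 (0.829), Arxes1 for Hey1 (0.829), Sipa1l1 for Jag1 (0.817), Tmc7 for Notch1 (0.817) and Cyb561 for Jag2 (0.784). The points share libraries, so these values are a description. Among the members themselves, Notch3 and Hes1 were the closest pair (0.823) and Jag2 and Notch2 the farthest apart (−0.347).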
